A study of Mus musculus with 6 samples.

Results

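The IGF2 mRNA-binding proteins are a family of 3 RNA-binding proteins, and the members were chosen by name, as every transcript whose gene name in the deposited comparison table is Igf2bp1, Igf2bp2 or Igf2bp3. That rule found 1 transcript of 1 gene, Igf2bp1 (ENSMUSG00000013415), among 15905 transcripts of 8513 genes, and expression of Igf2bp2 and Igf2bp3 was not analysed here. The cells were B16.F10, a pigmented mouse melanoma line that forms lung colonies, of wild-type genotype per the labels. A group of 3 samples was left untreated and a group of 3 samples was given 3.5 µM simvastatin, with 24 h stated for both, and all carry 1 batch date. Simvastatin is a statin, which blocks HMG-CoA reductase and so the supply of mevalonate for sterols and prenyl groups. Total RNA was made into stranded sequencing libraries.

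IGF2BP proteins bind mRNAs in the cytoplasm through RRM and KH domains, pack them into ribonucleoprotein particles, and protect them from decay or delay their translation until they reach the right place. Igf2bp1, also known as IMP1, CRD-BP and ZBP1, was described through its binding to the coding region of the Myc mRNA and to the zipcode of the beta-actin mRNA. Igf2bp1 and Igf2bp3 are expressed mainly before birth, are silent or low in most adult tissues, and return in many tumours, whereas Igf2bp2 is also expressed in many adult tissues. The Igf2bp1 mRNA is a well-known target of the let-7 microRNAs. The proteins also act as readers of N6-methyladenosine (m6A), a methyl mark on mRNA.

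In length, the reference mRNA of Igf2bp1 differs from those of its paralogs mainly in its tail. In GENCODE release M21 on GRCm38, Igf2bp1 lies on the minus strand of chromosome 11, from 95957163 to 96005940, and its only coding transcript, ENSMUST00000013559, has 15 exons. That transcript is also the measured one. It holds 307 bases of 5′ untranslated region, 1734 bases of coding sequence with the stop codon, and 6337 bases of 3′ untranslated region. The 3′ untranslated regions of the reference transcripts of Igf2bp2 (chromosome 16) and Igf2bp3 (chromosome 6) are 1784 and 2119 bases long. The coding sequences are alike in length, with 1779 bases in Igf2bp2 and 1740 in Igf2bp3. In a global alignment, Igf2bp1 was identical to Igf2bp2 at 70.9% of 1693 aligned coding bases and to Igf2bp3 at 69.8% of 1714, and the other two were identical to each other at 71.2%.

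The long tail holds most of the family's matches to the let-7 seed, with 4 in 6337 bases. The tails of Igf2bp2 and Igf2bp3 hold 1 in 1784 and 1 in 2119 bases, so a match is not particular to Igf2bp1. Within the family the higher count goes with the longer tail, and whether length accounts for it was not tested. The matches are shown because the Igf2bp1 mRNA is a well-known let-7 target. The seed, bases 2 to 8 of the microRNA, is shared by 10 mature mouse microRNAs of the let-7 family in the RefSeq table (GRCm38.p6): let-7a, let-7b, let-7c, let-7d, let-7e, let-7f, let-7g, let-7i, let-7k and miR-98. The letters searched on the mRNA strand were CTACCTC, the reverse complement of that seed. Capitals mark the seed in the microRNA and its match in the mRNAs, and all sequences run 5′ to 3′ with GRCm38 positions on the minus strand. The 4 matches of Igf2bp1 and the single matches of Igf2bp2 and Igf2bp3 read as follows.
let-7a-5p: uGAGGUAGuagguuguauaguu
Igf2bp1 site 1, chr11:95961777-95961800: gctgtgcgaagtaaaCTACCTCaa
Igf2bp1 site 2, chr11:95959356-95959379: cagcagtgctattaaCTACCTCag
Igf2bp1 site 3, chr11:95958762-95958785: gtataaatggatgaaCTACCTCag
Igf2bp1 site 4, chr11:95958139-95958162: acttttggttttaatCTACCTCtt
Igf2bp2 site, chr16:22059472-22059495: acacacaaataaaagCTACCTCag
Igf2bp3 site, chr6:49086786-49086809: tgcatttttactcaaCTACCTCag
Sites 1, 2 and 3 of Igf2bp1 and the sites of both paralogs are followed by an A, which gives the 8-letter form of the match, and site 4 is not. Sites 2, 3 and 4 lie within the last part of the tail, from base 4136 to base 5353 of the 3′ untranslated region, and site 1 is at base 1715. A match is a stretch of letters and does not show that a microRNA binds there, and let-7 itself was not analysed here.

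**Figure D1:**
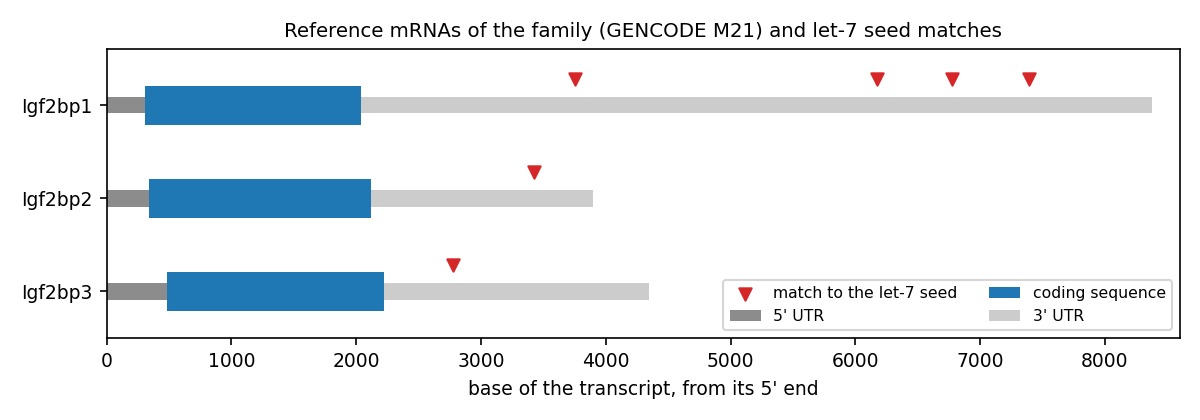
Reference mRNAs of Igf2bp1, Igf2bp2 and Igf2bp3, drawn to scale in bases from the 5′ end (horizontal axis), with the coding sequence as a thick bar, the untranslated regions as thin bars and each match to the let-7 seed as a triangle. The 3′ untranslated region of Igf2bp1, 6337 bases, carries 4 matches, and each paralog carries 1.

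Such matches are uncommon in the measured mRNAs. Of 9001 measured coding transcripts with an annotated 3′ untranslated region, 7.42% held at least 1 match. The share was higher among long ones: of the 350 with a 3′ untranslated region within 1.5 times the length of that of Igf2bp1, 30.6% held at least 1. In all, 3 of the 9001 held 4 or more, namely Nudt12 with 7, and Hmga2 and Igf2bp1 with 4 each; this group was picked after values had been seen. Hmga2, a chromatin protein of the fetal and tumour programme and another well-known let-7 target, had a group value of 4.46 with simvastatin and 7.28 in control (adjusted p = 0.194 in the authors' deposited table). Nudt12, a nucleotide hydrolase gene, had 6.13 and 4.22 (adjusted p = 0.119 in the authors' deposited table). The 3 transcripts thus did not share a direction. The 668 transcripts with at least 1 match had a median log2 ratio of simvastatin to control of 0.17, beside 0.05 for all 9001. Among the 350 of similar length the order was the other way, with 0.22 for the 107 with a match beside 0.32 for all 350. At an adjusted p under 0.05 in the authors' deposited table, 14 of the 668 (2.10%), Igf2bp1 among them, were lower and 7 (1.05%) higher, beside 1.18% and 1.59% of all 9001.

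Igf2bp1 was lower in simvastatin-treated cells. Its group value in the authors' deposited table was 0.90 with simvastatin and 2.91 in control, so treated cells held 30.9% of the control value. The deposited fold is -3.23, which is written with a minus sign for a lower value, and corresponds to a log2 ratio of -1.69. The p-value is printed as 0.000, which means under 0.0005, and the adjusted p-value as 0.042 in the authors' deposited table. It is also among the transcripts that the authors called, which include 4.37% of all transcripts on the lower side. Since the gene was chosen from this same comparison, these values are a description and not a test of it here. In these data, fewer cells that express the gene and less RNA per cell cannot be told apart.

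The values behind that ratio are small and come without an error. The table gives 1 value per group and no value per sample, so no SD could be computed and whether the samples of the groups overlap is unknown. The values are printed to 2 decimals, which by itself places the fold between 3.21 and 3.26 lower. With 1 added to each group value the fold is 2.06 lower, so its size depends on how low values are treated. Every transcript of the table reached at least 0.71 in 1 of the groups, and Igf2bp1 was above that level in both. Neither a unit nor a scaling by transcript length is stated for the values. Similar values of different genes, as used below, therefore need not mean similar RNA levels.

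Over the whole table, 157 transcripts (0.987%) were on the lower side of an adjusted p of 0.05 and 176 (1.11%) on the higher side. Of the lower ones, 34 had a lower ratio than Igf2bp1. Of those 34, 29 are transcripts of genes that have other transcripts in the table, where a low value can be a shift between isoforms. Igf2bp1 has 1 transcript there, which carried all of its gene total in both groups. Among the 79 lower transcripts of genes with 1 transcript, it had the sixth lowest ratio. Those ahead of it were Poli, a translesion DNA polymerase gene, the linker histone gene Hist1h1a, the metalloprotease gene Adam12, N4bp2l2 and Gm6750. On gene totals, summed over a gene's transcripts, 88 of 7566 protein-coding genes had a lower ratio than Igf2bp1, called or not.

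A ratio of this size was common among transcripts of similar control value, and a call was rare. Within 1.2 times the control value of Igf2bp1 there were 1705 transcripts, with a median log2 ratio of 0.01. Of these, 173 (10.1%) had a ratio as low as that of Igf2bp1 or lower, and 10 (0.587%) were lower at an adjusted p under 0.05. The 5 genes whose pair of gene totals was nearest to that of Igf2bp1, by Euclidean distance on log2 values over the 2 group values, show the same. Iqce stood at 0.92 with simvastatin against 2.85 in control and Lpcat3, a lysophospholipid acyltransferase gene, at 0.93 against 2.89, at distances of 0.04 and 0.05. Their adjusted p-values were 0.413 and 0.506 in the authors' deposited table, against 0.042 for Igf2bp1. Next came the locus Gm43863 at 0.83 against 2.97, Noct, for the circadian protein nocturnin, at 0.86 against 2.71, and the ribosomal S6 kinase gene Rps6kb2 at 0.99 against 2.98, with 0.165, 0.368 and 0.139 as adjusted p-values in the authors' deposited table. None of the 5 passed an adjusted p of 0.05, although their group values were almost those of Igf2bp1, but Gm43863 and Rps6kb2 are among the transcripts that the authors called, as Igf2bp1 is. The spread between samples, which also enters a p-value, was not analysed here.

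**Figure D2:**
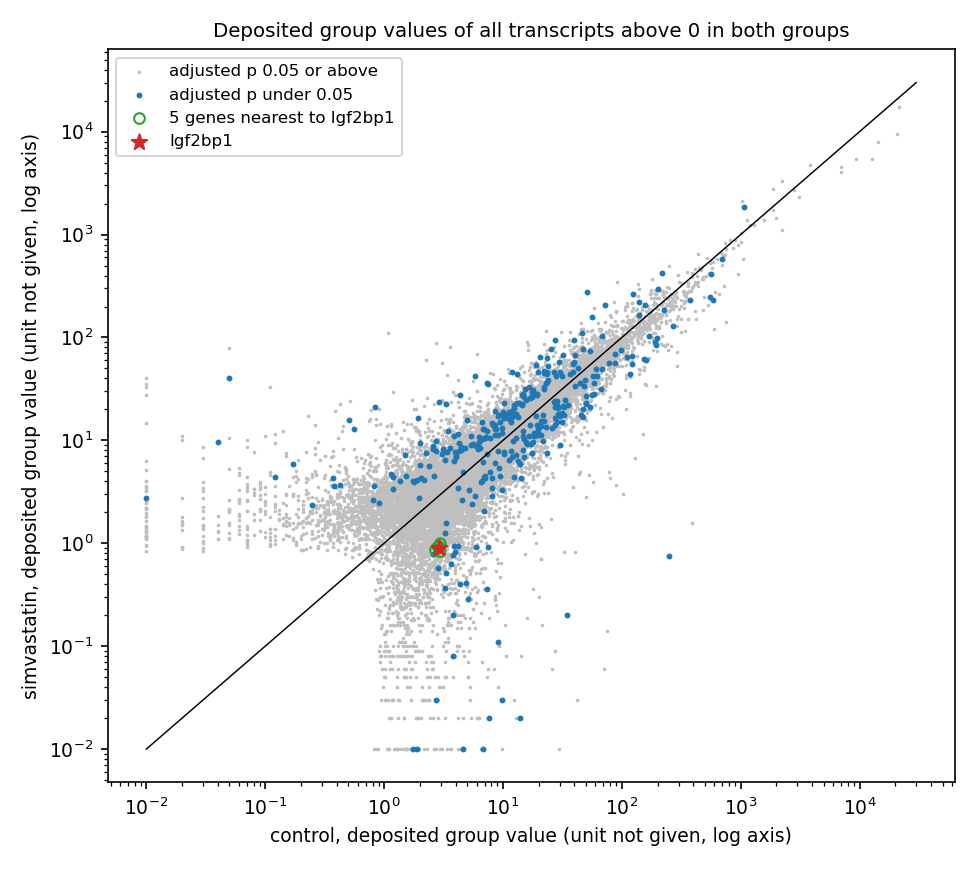
Deposited group values of every transcript above 0 in both groups, control on the horizontal and simvastatin on the vertical log axis (unit not given), with the line of equal values; blue points have an adjusted p under 0.05, green circles are the 5 genes nearest to Igf2bp1 and the red star is Igf2bp1. Igf2bp1, at 2.91 and 0.90, lies below the line in the dense region of low values, and the circles around it are not blue.

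In the authors' deposited table of enrichment terms, Igf2bp1 was listed in 6 of 148 terms, all among the 68 terms of lower genes. Of these 6, ribonucleoprotein complex had the highest fold enrichment, 6.06 with 46 genes (adjusted p = 3.27e-20 in the authors' deposited table). Nucleic acid binding had a fold enrichment of 3.64 with 39 genes, and RNA binding 3.12 with 58 genes. The remaining terms were cell compartments: nucleoplasm (220 genes), cytoplasm (287 genes) and cytosol (202 genes). These terms were computed by the authors from genes they had called, Igf2bp1 among them, so its place there repeats its call. Of the list genes, Actb shares the ribonucleoprotein complex term with it, and Serbp1 and the KH domain gene Mex3a share the RNA binding term.

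The proteins reported to share particles with IGF2BP proteins were measured for all 16 genes listed, and more of them had lower than higher values. At an adjusted p under 0.05 on each gene's most abundant transcript, 2 fell and 1 rose, beside 1.39% of all genes lower and 1.76% higher. At an unadjusted p under 0.05 in the authors' deposited table, 6 of the 16 were lower and 1 higher, beside 14.9% of all genes lower and 13.6% higher. By the authors' own call 1 was higher and 1 lower, beside 6.91% of all genes higher and 5.50% lower. The list's median log2 ratio was -0.39, beside 0.02 over all 8513 genes, with 10 members below 0 and 6 above. On gene totals the list's median was -0.29. It was -0.19 with each value as a share of its group's table sum, which adds 0.20 to every log2 ratio. In the authors' deposited table, Serbp1, an RNA-binding protein of ribosomes and mRNA, fell 1.51-fold, from 16.68 in control to 11.06 (adjusted p = 0.047). In the authors' deposited table, G3bp1, which nucleates stress granules, fell 1.39-fold, from 67.87 to 48.99 (adjusted p = 0.044), without being called by the authors. Pabpc1, the main cytoplasmic poly(A)-binding protein, rose 2.12-fold there, from 124.21 to 263.89 (adjusted p = 0.042 in the authors' deposited table). Members of the complex that protects the Myc coding region had lower values without passing: Syncrip stood at 8.28 against 11.85, Hnrnpu at 20.96 against 31.60, Ybx1 at 36.16 against 49.24 and Dhx9 at 16.74 against 36.92 (adjusted p = 0.059, 0.546, 0.319 and 0.825 in the authors' deposited table). For Dhx9 the gene totals were closer, 52.56 against 58.53.

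The mRNAs reported as targets of the family had values on both sides of control. Of the 34 genes of the list reported here, 23 were measured, with 13 log2 ratios below 0 and 10 above and a median of -0.38. That median was -0.37 on gene totals and -0.18 with values as shares of the table sum. Of these 23, 1 fell at an adjusted p under 0.05, and 2 were higher and 7 lower at a deposited unadjusted p under 0.05, the threshold that 13.6% of all genes passed on the higher side and 14.9% on the lower. By the authors' own call on most abundant transcripts, 0 were higher and 4 lower, beside 6.91% of all genes higher and 5.50% lower. These 4 were Birc5, Hmgn1, Hmga2 and Ccnd1, named after their values were seen. E2f1, a cell cycle transcription factor gene, fell 1.23-fold, from 12.84 to 10.45 (adjusted p = 0.042), and its other transcript stood at 3.44 against 5.25 (adjusted p = 0.11 in the authors' deposited table). The authors called that other transcript and not the most abundant one. The classical targets did not pass an adjusted p of 0.05. On most abundant transcripts, Actb, the zipcode mRNA, stood at 572.76 against 1037.17 and Myc at 1.83 against 1.47 (adjusted p = 0.496 and 0.556 in the authors' deposited table). A less abundant Actb transcript, at 5.28 against 9.17, was called lower by the authors (adjusted p = 0.151 in the authors' deposited table). Those described in melanoma cells were close between groups: Mitf at 132.60 against 121.94 and Btrc, a ubiquitin ligase subunit gene, at 4.33 against 3.82 (adjusted p = 0.714 and 0.784 in the authors' deposited table). Cd44, an adhesion receptor gene, had 146.54 against 113.52 and Birc5, for survivin, 33.69 against 69.29 (adjusted p = 0.058 and 0.082 in the authors' deposited table). No measured gene of the partner or target lists had a ratio as low as that of Igf2bp1 on its most abundant transcript. Some less abundant transcripts did, such as those of Actb at 3.67 against 89.5 and Ctnnb1 at 0.82 against 40.65 (adjusted p = 0.728 and 0.935 in the authors' deposited table).

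**Figure D3:**
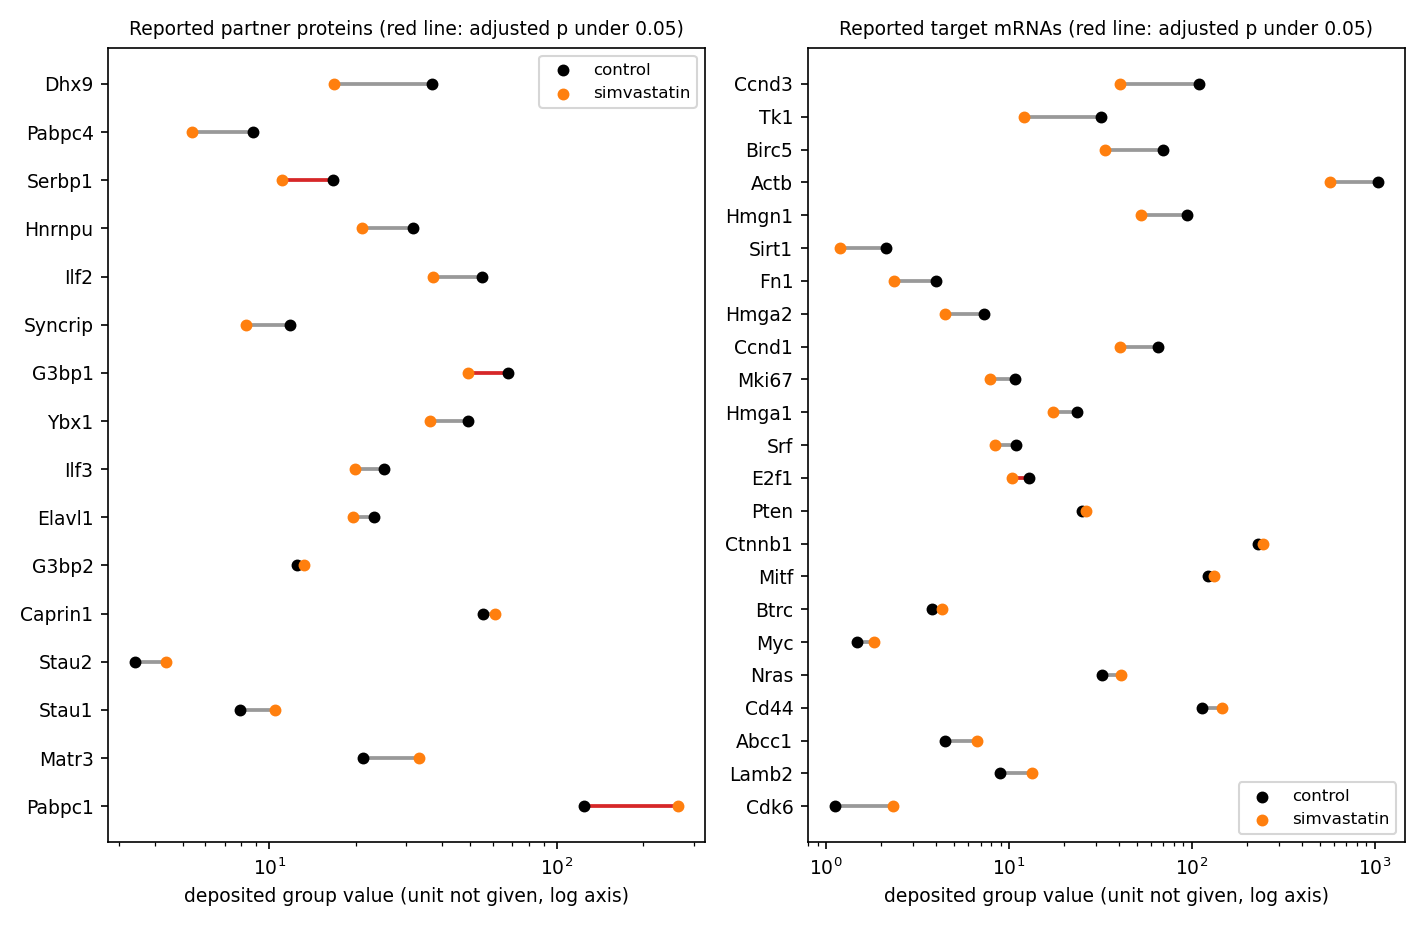
Deposited group values (log axis, unit not given) of the most abundant transcript of each measured partner gene (left) and target gene (right), control in black and simvastatin in orange, ordered by their log2 ratio; a red line joins values with an adjusted p under 0.05. Serbp1, G3bp1, Pabpc1 and E2f1 have red lines, and both panels hold genes with lower values (top) and higher values (bottom).

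The deposited comparison with the human melanoma line A375, treated with 10 µM simvastatin in an outside signature, holds 158 genes, and 2 of them are reported here from these lists. G3bp1 had a mouse log2 fold change of -0.46 per gene and a human z-score of -2.98 in the authors' deposited table. E2f1 had -0.38 and -1.78 in the authors' deposited table. Both genes thus had the same sign in both columns, in a table that holds mouse genes past an adjusted p of 0.05. How many of the 158 genes share a sign was not analysed here, so the 2 genes show nothing particular to these lists. No gene of the family, Igf2bp1 included, is named in that comparison.

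Genes of the m6A machinery, whose mark the IGF2BP proteins read, held 10 measured of 16, and none passed an adjusted p of 0.05. At a deposited unadjusted p under 0.05, 1 was higher and 2 lower, beside 13.6% of all genes higher and 14.9% lower. The median log2 ratio was 0.14 on most abundant transcripts and -0.05 on gene totals. Alkbh5, a demethylase, stood at 76.00 against 63.76 and Ythdf1, a reader that promotes translation, at 23.70 against 24.50 (adjusted p = 0.331 and 0.384 in the authors' deposited table). Cbll1, a subunit of the methyltransferase complex, had a ratio below that of Igf2bp1, at 0.41 against 1.95, with an adjusted p of 0.575 in the authors' deposited table.

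Other RNA-binding proteins with KH domains, the domain type that carries much of the RNA contact of the family, held 23 measured of 30. None passed an adjusted p of 0.05, with 0 higher and 4 lower at an unadjusted p under 0.05 in the authors' deposited table, beside 13.6% of all genes higher and 14.9% lower. The median log2 ratio of -0.20 moved to 0.00 when each value was taken as a share of its group's table sum, which adds 0.20 to every log2 ratio. Khsrp, a KH protein of mRNA decay, stood at 82.44 against 94.26 (adjusted p = 0.473 in the authors' deposited table). Pcbp1, a poly(C)-binding protein, had 74.65 against 121.25 for its most abundant transcript and 93.49 against 35.84 for the other (adjusted p = 0.734 and 0.785 in the authors' deposited table). On most abundant transcripts, Ankhd1, with 0.11 against 1.38 (adjusted p = 0.868 in the authors' deposited table), was the only member with a ratio as low as that of Igf2bp1.

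The genes of the let-7 and LIN28 axis held 9 measured of 18, and none passed an adjusted p of 0.05. At a deposited unadjusted p under 0.05, 2 were higher and 2 lower, beside 13.6% of all genes higher and 14.9% lower. Lin28a and Lin28b, which block let-7 maturation, were not analysed here. The median log2 ratio was 0.37 on most abundant transcripts and -0.07 on gene totals. Ago2, the slicing Argonaute that carries microRNAs, stood at 62.79 against 43.82, and Hmga1, a paralog of Hmga2, at 17.42 against 23.48 (adjusted p = 0.236 and 0.154 in the authors' deposited table).

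Of the IGF pathway itself, 3 of 17 listed genes were measured, and neither Igf2, the mRNA that gave the family its name, nor the receptor gene Igf1r was analysed here. No gene passed an adjusted p of 0.05, and none had an unadjusted p under 0.05 in the authors' deposited table. Igfbp4, a secreted IGF-binding protein, stood at 22.50 against 41.05 and the insulin receptor gene Insr at 7.37 against 4.33 (adjusted p = 0.412 and 0.266 in the authors' deposited table). Igf2r, for the receptor that clears IGF2, had 3.16 against 4.31 (adjusted p = 0.758 in the authors' deposited table).

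mRNA decay factors, which act against the protection that IGF2BP proteins give, held 20 measured of 28. None passed an adjusted p of 0.05, and the median log2 ratio was 0.25 on most abundant transcripts and 0.09 on gene totals. At a deposited unadjusted p under 0.05, 1 was higher and 0 lower, beside 13.6% of all genes higher and 14.9% lower. Cnot1, the scaffold of the CCR4-NOT deadenylase, stood at 30.60 against 38.94 for its most abundant transcript and Cnot6, a catalytic subunit, at 44.64 against 48.03 (adjusted p = 0.349 and 0.443 in the authors' deposited table).

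The WNT and MYC factors reported upstream of Igf2bp1, whose promoter is a target of beta-catenin, held 12 measured of 15 and none passed an adjusted p of 0.05. At a deposited unadjusted p under 0.05, 3 were higher and 1 lower, beside 13.6% of all genes higher and 14.9% lower. The median log2 ratio was 0.25 on most abundant transcripts, where 10 of the 12 ratios were above 0, and 0.37 on gene totals. Mxd4, a MYC antagonist, stood at 34.66 against 10.69, and Ctnnb1, for beta-catenin, at 246.34 against 228.85 for its most abundant transcript (adjusted p = 0.059 and 0.871 in the authors' deposited table). On gene totals Ctnnb1 had the opposite order, 293.82 against 338.07.

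**Figure D4:**
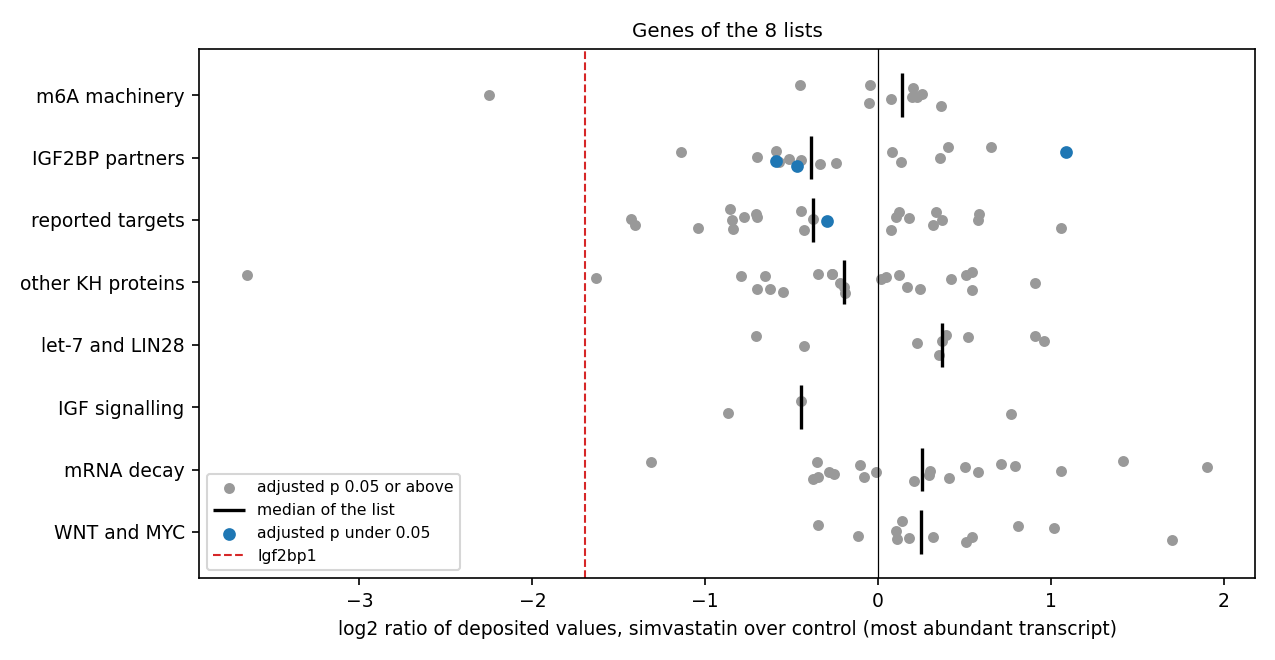
Log2 ratio of simvastatin to control (horizontal axis, most abundant transcript) of each measured gene of the 8 lists, with the list median as a black bar, genes with an adjusted p under 0.05 in blue, and the value of Igf2bp1, -1.69, as a dashed red line. Blue points appear only among partners and targets, and 2 genes of all lists, Cbll1 and Ankhd1, lie left of the dashed line.

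The label of the line fits the markers measured. All 10 melanocyte markers were measured, none at 0, with a summed value of 10631 with simvastatin and 7419 in control. The sum weighs the markers of highest value most. With simvastatin 9 had a higher value, and Sox10 a lower one, 16.71 against 23.68 (adjusted p = 0.907 in the authors' deposited table). Gpnmb was the 1 that rose at an adjusted p under 0.05 (adjusted p = 0.042 in the authors' deposited table). Markers of fibroblasts, leukocytes, keratinocytes and endothelial cells were not analysed here. Of the 167 distinct list genes reported here, 111 were measured, of which 1 rose and 3 fell by the deposited adjusted p. The summed table values were 344210 with simvastatin and 394749 in control, the median log2 ratio over all transcripts was 0.02. The files used here give no depth for any sample.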

How the data were processed

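RNA of 6 samples was sequenced, and groups were taken from the sample titles. The submitters' processing notes name HISAT2 2.0.5, StringTie and the build GRCm38 (mm10). For the authors' counting, filter on low values and test, no source used here gives the steps.

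The authors deposited, per the file headers, 1 signal value per group and transcript, of unstated unit, a signed fold, a p-value and an adjusted p-value, both printed to 3 decimals. The human comparison holds, per the file headers, a log2 fold change per gene and a z-score, which is a score from an outside signature.

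No test was refitted. Log2 ratios were computed from the deposited group values, and counts use the deposited adjusted p under 0.05. With 3 samples per group, called biological replicates in the series text, p-values reflect separate cultures if that description holds, and otherwise a spread that may be technical. The members and the 8 lists were chosen with earlier results of these data known. The transcript with the highest mean over the groups stands for each list gene. Named in the text were, per list, up to 4 genes past the threshold (smallest adjusted p first) and, where fewer than 2 passed, the 2 genes of highest mean value among the rest, and the 5 genes nearest to Igf2bp1. Other names (among the partner and target genes, Hmga2, Nudt12, Cbll1, Ankhd1, Mex3a, Igf2r and those ahead of Igf2bp1 in rank) were chosen after their values were seen. List genes were matched by symbol (109) or gene ID (2), and 56 were not matched. A gene of the target list is not reported here and is left out of its counts. Sequences are from GENCODE M21 and RefSeq; coding sequences were aligned with Biopython 1.88 (Python 3.11.15). Counting, ranking and site search were tested on simulated data. Protein and promoter sequences were not used here.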

Additional observations from a re-analysis of the deposited data

How the results depend on the processing

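The log2 ratio of Igf2bp1, -1.69, kept its sign under all 6 settings tried. Each setting keeps the order of the 2 group values or shifts every ratio by at most 0.20, so the kept sign is no support. The ratio was the same on the most abundant transcript, on Ensembl transcripts only and without rows whose mean was under 0.5. This is because the 1 transcript of Igf2bp1 is an Ensembl one with a mean above that level. The log2 ratio was -1.04 with 1 added to each group value, -1.50 as a share of the table sum and -1.71 when centred on the median of all transcripts. Igf2bp1 was called under each of the 4 rules tried. Its adjusted p of 0.042 already fixes the outcome at an adjusted p under 0.1 and at an unadjusted p under 0.05. These rules are therefore no separate support for the call. Over the whole table, higher and lower transcripts numbered 816 and 695 by the deposited call, 639 and 598 at an adjusted p under 0.1, and 1499 and 1621 at an unadjusted p under 0.05. Taking any transcript of a gene changed none of the 16 list counts at an adjusted p under 0.05. By the authors' own call on most abundant transcripts, higher and lower genes numbered 1 and 1 among partners and 0 and 4 among targets. For the let-7, WNT and mRNA decay lists they numbered 1 and 1, 2 and 0, and 1 and 0. The KH list had 0 and 1, and the m6A and IGF lists had 0 and 0. Among targets, less abundant transcripts of Actb and E2f1 were also called lower, so the counts by that call depend on the transcript taken. Of all genes, 6.91% were called higher and 5.50% lower. As shares of the table sum, 35.9% of genes had a ratio below 0 instead of 48.6%, and among the genes given with values Ythdf1, Khsrp, Cnot6 and the gene total of Dhx9 changed sign. The difference between Igf2bp1 and its paralogs had no value, and replicates could not be left out, because the deposited values are per group. No paired analysis was possible because the columns used carry 1 pooled value per group.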
